A study of Vanessa cardui with 14 samples.

Results

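The last recorded step of wing development in the painted lady butterfly, Vanessa cardui, was the passage of the pupal hind wing from the stage at which red and orange ommochrome pigment starts to appear to the stage at which black melanin starts to appear. Its members were chosen by their labels: 2 libraries of ommochrome stage and 2 of melanin stage hind wings, 4 of the 14 libraries of the series. All came from untreated animals reared from the first larval instar on 1 light-dark cycle, and each library was made from polyadenylated RNA of dissected wings. The labels give neither strain nor sex, nor the number of animals behind a library, so the spread between the 2 libraries of a stage may be technical. The other 10 libraries came from hind wings of the last larval instar, of pupae 72 h and 5 d after pupation (the latter before any pigment), and from red and black regions cut from pupal forewings, with 2 libraries in each group. The forewing regions are labelled melanin stage in their titles and ommochrome stage in the description of the dissection, so their stage is uncertain.

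Butterfly wing colour is made scale by scale, each scale being the product of a single cell that deposits its pigment late in the pupa. Ommochromes derive from tryptophan by way of kynurenine, and melanins derive from tyrosine by way of dopa and dopamine, which enzymes oxidise and cross-link in the scale cuticle. Red and orange pigments appear before black ones in nymphalid wings. The deposited table names genes by an assembled component and a number within it (such as c24618_g10) and pairs none of them with a gene name. Of its 13876 identifiers, 0 matched the RefSeq gene table of the species. The enzymes of either pathway could therefore not be located, no marker gene could be used to check the tissue or the stage, and no sequence is shown.

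Values were FPKM, a read count scaled for gene length and library size, and changes are given as log2(FPKM + 1) at the melanin stage minus the ommochrome stage. On this scale the change of low genes is understated. The summed FPKM was 560033 and 482546 in the ommochrome libraries and 588747 and 628027 in the melanin libraries. No read totals are known. Relative depth, estimated from the steps between low FPKM values with larval replicate 1 as 1, was 1.58 and 1.87 at the ommochrome stage and 0.46 and 1.28 at the melanin stage. These estimates are rough: 59 of the 91 pairs of libraries fitted them within 0.1 log2, and on simulated libraries the method was at times wrong by a factor of 2. Melanin replicate 1, with the lowest estimate and the most zeros of the 14 libraries, listed 3641 genes at 0, against 2368 in melanin replicate 2 and 2038 and 1931 in the ommochrome libraries. The melanin replicates were also farther apart: log2 differences between them had an SD of 0.725, against 0.439 between the ommochrome replicates. The difference between the stage means had an SD of 0.517. Means of 2 libraries carry less noise than single libraries, so that value cannot be set directly against those of the replicates. Across the 10780 genes tested, which are not independent, the log2 values of the ommochrome replicates had a Pearson correlation of 0.977, those of the melanin replicates 0.942, and pairs from different stages 0.943 to 0.958. The melanin replicates were thus no more alike than libraries of different stages.

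Few genes passed the test in this step. In limma's moderated test, fitted to all 14 libraries and adjusted by the Benjamini-Hochberg method, 27 genes passed an adjusted p of 0.05, which is 0.25% of those tested. Of these, 13 were higher at the melanin stage (0.121%) and 14 lower (0.13%). Each SE and p rests on a spread pooled within all 7 groups. In genes near 0 in the other groups it can understate the spread between replicates of the compared stages. At an unadjusted p of 0.05, 626 genes (5.81%) were higher and 316 (2.93%) lower. That split depended on the scaling: it was nearly even at 476 higher and 453 lower under median-of-ratios scaling, and it turned to 295 higher and 725 lower where FPKM totals were made equal. The median change was 0.06 as deposited and -0.10 with equal totals. As deposited, 593 genes (5.5%) had a difference of at least 1 log2, 328 of them higher and 265 lower. In whole wings, fewer cells that express a gene and less RNA per cell cannot be told apart. The count depended on the libraries that entered: without either ommochrome library 0 genes were called by limma, with 635 and 498 at an unadjusted p of 0.05, and in a limma fit to the 4 libraries alone 0 were called, with 1103. Without melanin replicate 1 limma called 23 genes, 10 of the 27 among them, and without melanin replicate 2 it called 59, with 17 of the 27.

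**Figure D1:**
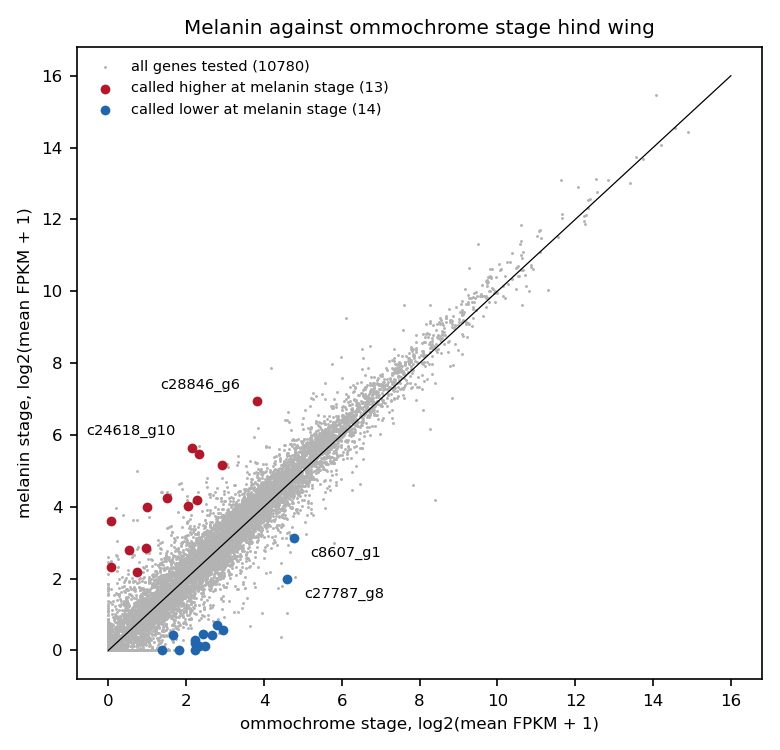
Mean expression of each gene tested at the ommochrome stage (x axis) and the melanin stage (y axis), both as log2(mean FPKM + 1), with the line of equal values. The 13 red points are genes called higher and the 14 blue points genes called lower by limma, and none of them lies above 7 on either axis, while the most abundant genes follow the diagonal.

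The called risers had a higher median level than the called fallers, and the ranges of the 2 overlapped. Mean FPKM at the melanin stage was 3.56 to 121.8 in the 13 risers, with a median of 15.2, and 9 of them reached at least 10 FPKM. Mean FPKM at the ommochrome stage was 1.6 to 26.2 in the 14 fallers, with a median of 4.2, and 2 of them reached 10 FPKM. The log2 changes were 1.47 to 3.49 among the risers and -1.25 to -2.86 among the fallers. In all 27 genes both libraries of a stage lay on the same side of both libraries of the other. Those libraries did not overlap in 25.1% of all genes tested on the higher side and in 15.8% on the lower side. Of the fallers, 8 were listed at 0 in melanin replicate 1 and 2 in both melanin libraries. With melanin replicate 1 alone set against the ommochrome mean, the smallest fall was 1.08, and with replicate 2 alone it was 1.38.

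The most abundant riser was c28846_g6, a gene of unknown function. It was measured at 17.1 and 9.13 FPKM at the ommochrome stage and at 73.6 and 169.9 FPKM at the melanin stage. Both melanin values lay far above both ommochrome values, and the melanin replicates themselves differed widely. This was a log2 difference of 3.06 with SE 0.381 and adjusted p by limma of 0.013. In the 6 earlier hind wing libraries it was at 0.15 to 0.74 FPKM, lower than at either pigment stage. In forewings it was at 79.2 and 76.3 FPKM in red and 822.4 and 798.7 FPKM in black regions. The red regions thus lay within the range of the melanin hind wing, and the black regions lay above all other libraries. The call was lost without an ommochrome library (limma adjusted p = 0.0853 and 0.155) and in the 10 hind wing libraries alone (limma adjusted p = 0.108).

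The second named riser, c24618_g10, behaved differently, since the ommochrome stage was its low point. It was at 3.63 and 3.26 FPKM at the ommochrome stage and at 53.1 and 44.9 FPKM at the melanin stage (log2 difference 3.49 with SE 0.525, adjusted p by limma = 0.031). In the remaining libraries it was at 35.3 and 51.2 FPKM in larval wings, 29.1 and 25.4 FPKM at 72 h, 30.2 and 7.19 FPKM at 5 d, 52.2 and 37.5 FPKM in red and 39.1 and 22.4 FPKM in black regions. The melanin values overlapped the larval ones, and 5 d replicate 2 was the library nearest to the ommochrome values. The limma adjusted p ranged from 0.0547 to 0.254 where a larval, ommochrome, melanin or red library was left out. It was 0.06 with a replicate block for the compared stages and 0.166 in hind wings alone.

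The same course was seen in 3 other risers, so that in 4 of the 13 both ommochrome libraries were the lowest of all 14. Over these 4 genes the ommochrome values were 0.97 to 6.6 FPKM, the melanin values 11.4 to 53.1 FPKM, the earlier hind wings 7.09 to 61.01 FPKM and the forewings 17.7 to 54.5 FPKM. One of them was a further gene of the component of c24618_g10, at 6.6 and 6.49 FPKM against 37.6 and 32.4 FPKM (log2 difference 2.25, adjusted p by limma = 0.0444). Genes of 1 component are similar or adjoining assembled sequences that may share reads, so these 2 are not separate evidence. Another member of the component, present at 24.6 and 19.8 FPKM at the ommochrome and 15.3 and 21.3 FPKM at the melanin stage, had a change of -0.28 that missed the threshold (limma adjusted p = 0.898).

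In 7 of the 13 risers both melanin libraries were the highest of all 14. These were weakly expressed genes, at 3.46 to 23.3 FPKM at the melanin stage, 3.14 FPKM or less at the ommochrome stage and 5.5 FPKM or less in the other 10 libraries. One of them was at 1.99 and 1.65 FPKM at first and later at 12.8 and 23.3 FPKM (log2 difference 2.70 with SE 0.282, adjusted p by limma = 0.00552), and was at 3.53 to 5.5 FPKM in the forewings. Another went from 0.09 and 0 FPKM to 4 and 3.93 FPKM (log2 difference 2.25 with SE 0.204, adjusted p by limma = 0.00551), with 0 to 0.18 FPKM in the forewings and at most 0.56 FPKM at the earlier stages. Yet another was at 0 FPKM in the 6 earlier libraries, at 0.48 and 0.41 FPKM at the ommochrome stage and at 7.88 and 3.89 FPKM at the melanin stage (log2 difference 2.19, adjusted p by limma = 0.0194). In these genes the melanin hind wing stood above both forewing regions.

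The remaining 2 risers, c28846_g6 and 1 more, were also present in the forewing and highest in its black regions. The second went from 3.09 and 4.66 to 16.6 and 17.9 FPKM in hind wings (log2 difference 1.92 with SE 0.254, adjusted p by limma = 0.0165). It was at 8.01 and 7.92 FPKM in red and 25.7 and 40.2 FPKM in black regions. In the 6 earlier hind wing libraries it stayed at 0.08 to 0.28 FPKM.

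**Figure D2:**
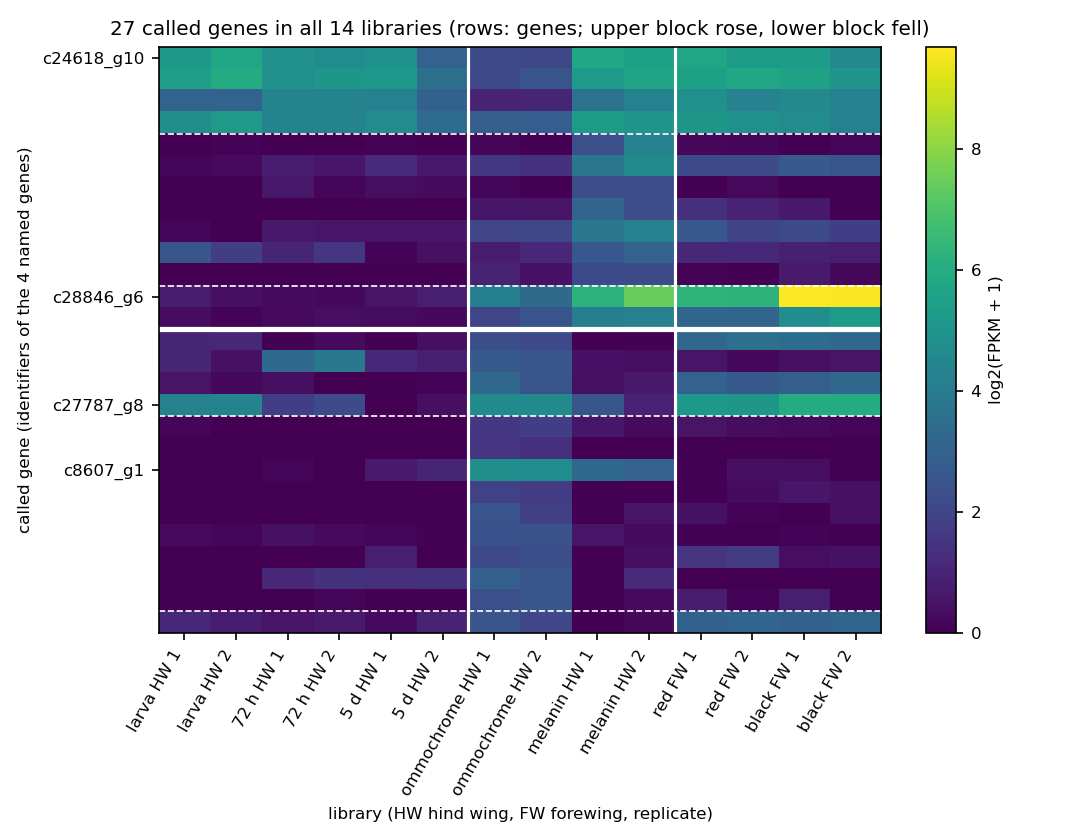
Expression of the 27 called genes as log2(FPKM + 1) (colour) in the 14 libraries (columns, HW hind wing and FW forewing), with the 13 risers above the thick line and the 14 fallers below it. Dashed lines part the courses: the uppermost 4 risers are darkest at the ommochrome stage, the next 7 are brightest at the melanin stage, and 9 fallers are brightest at the ommochrome stage.

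The most abundant faller was c8607_g1. It was at 27.4 and 24.9 FPKM at the ommochrome stage and at 8.3 and 7.24 FPKM at the melanin stage (log2 difference -1.63 with SE 0.224, adjusted p by limma = 0.0189), and replicates were close at both stages. It was at 0 to 0.98 FPKM in the earlier hind wing libraries and at 0 to 0.31 FPKM in the forewings. Its RNA was thus found in pigmenting hind wings and was near 0 in every other library. Its adjusted p by limma was 0.0546 and 0.0517 without melanin replicate 1 and 2, 0.192 and 0.155 without ommochrome replicate 1 and 2, and 0.588 with a pseudocount of 0.1.

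The second named faller, c27787_g8, was at 23.1 and 23.3 FPKM at the ommochrome stage and at 5.03 and 0.85 FPKM at the melanin stage (log2 difference -2.86 with SE 0.441, adjusted p by limma = 0.0349). In the larva it was at 17.6 and 19.1 FPKM, at 72 h at 2.46 and 3.78 FPKM and at 5 d at 0 and 0.33 FPKM. It was therefore high in the larva and at the ommochrome stage, and low at 72 h, 5 d and the melanin stage. The forewings held more of it than any hind wing library, at 35.2 and 34.3 FPKM in red and 63.6 and 63.2 FPKM in black regions. A gene of the same component moved the other way, from 0.43 and 0 FPKM to 3.55 and 2.34 FPKM, without passing the test (log2 difference 1.70, adjusted p by limma = 0.175). The limma adjusted p of c27787_g8 was 0.0501 to 0.272 where a larval, 5 d, ommochrome, red or black library was left out, 0.0659 with a replicate block over all libraries, 0.222 in hind wings alone and 0.246 with a pseudocount of 0.1.

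**Figure D3:**
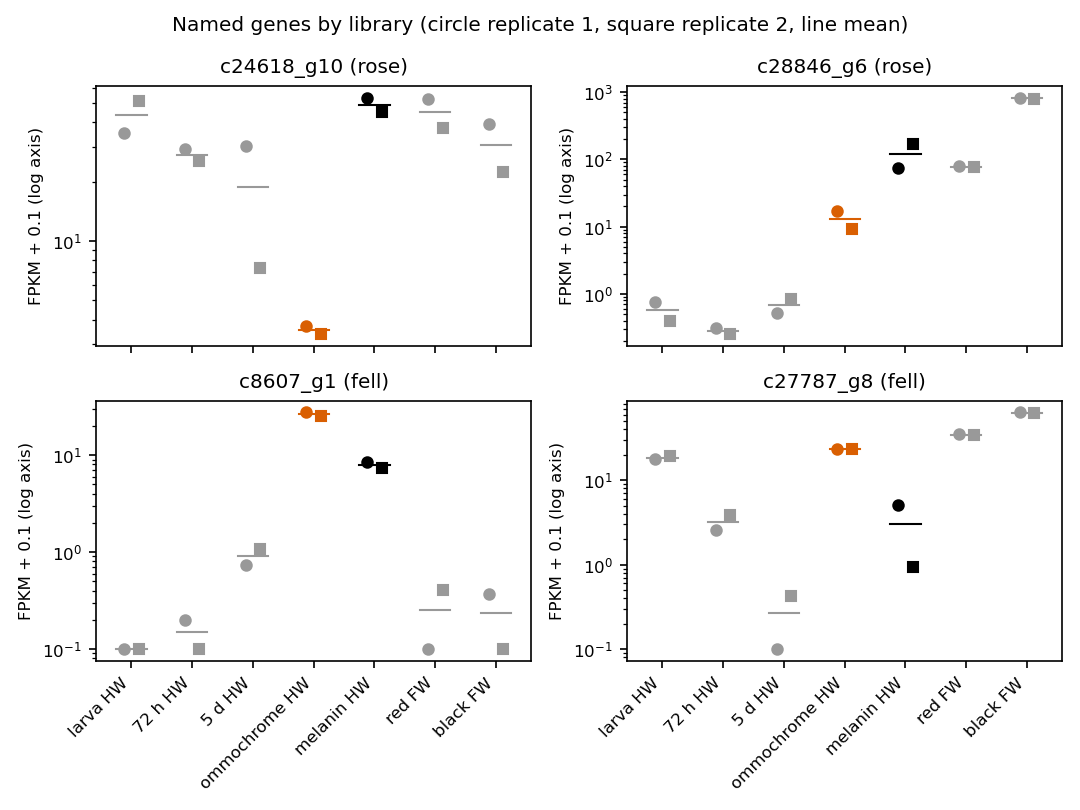
FPKM + 0.1 on a log axis (y) of the 4 named genes in the 7 groups (x), with circles for replicate 1, squares for replicate 2, and a line at the mean of 2 libraries. The ommochrome stage (orange) and the melanin stage (black) do not overlap in any of the 4 genes, c24618_g10 is lowest at the ommochrome stage, and c8607_g1 is near 0 outside those stages.

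The ommochrome stage was the high point of most called fallers. In 9 of the 14 fallers both ommochrome libraries were the highest of all 14. Over these 9 the ommochrome values were 1.49 to 27.4 FPKM, the melanin values 0 to 8.3 FPKM, and the other 10 libraries 0 to 2.28 FPKM. One of them was at 2.74 and 2.33 FPKM at the ommochrome stage, at 0 in both melanin and all 6 earlier hind wing libraries, and at 0 to 0.51 FPKM in the forewings (log2 difference -1.82 with SE 0.185, adjusted p by limma = 0.00551). Melanin replicate 1 had the most zeros of all libraries, and the part of this in such low genes was not tested. For the course of these 9 fallers and the courses of the risers, the share over all genes tested is not given here. The pooled spread can be small in genes near 0 elsewhere, so the calls may lean towards such courses.

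A different course was that of 4 fallers that were present in all 4 forewing libraries at 1 FPKM or more, c27787_g8 among them. A pair of genes from 1 component was at 3.97 and 3.36 FPKM and at 4.83 and 3.23 FPKM at the ommochrome stage, and at 0.17 FPKM or less in each melanin library (log2 change -2.20 for both, limma adjusted p = 0.00551 and 0.013). In the forewings the pair was at 6.74 to 10.8 FPKM. The fourth was at 8.7 and 4.7 FPKM at the ommochrome stage, 0.36 and 0.58 FPKM at the melanin stage and 5.48 to 8.66 FPKM in the forewings (log2 difference -2.34, adjusted p by limma = 0.013). The remaining faller was highest at 72 h, with 8.83 and 13.8 FPKM, and was at 5.69 and 4.93 FPKM at the ommochrome stage, 0.4 and 0.29 FPKM at the melanin stage and 0.16 to 0.45 FPKM in the forewings (log2 difference -2.23, adjusted p by limma = 0.013). On the log2 scale the forewing mean lay nearer to the melanin than to the ommochrome hind wing in 10 of the 14 fallers and in 6 of the 13 risers. The 10 include the 9 fallers highest at the ommochrome stage, whose low forewing values of 0 to 2.28 FPKM largely fix that outcome. The same count over all genes tested is not given here, so no likeness of the forewing to a stage is read from it.

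Some called genes shared a component with other genes, in a share not far from that of all genes tested. Of the 27 genes, 12 (44.4%) came from components of more than 1 gene, against 35% of all genes tested. The 27 came from 24 components, 3 of which gave 2 called genes each, and in each of these pairs both genes moved the same way. The components held 12 further genes that were tested and not called, and 2 of those passed an unadjusted p of 0.05. Both moved against the called gene of their component. With FPKM summed over each component before the test, limma called 18 of the 8886 components tested.

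A wider set was defined by size alone, as genes whose nearest libraries of the 2 stages lay at least 1 log2 apart. It held 80 genes on the higher side (0.742% of those tested) and 67 on the lower side (0.622%), and 13 genes of each were called by limma. With equal FPKM totals the set held 56 higher and 110 lower. Mean FPKM at the higher stage had a median of 16.1 in the 80 and 5.47 in the 67, and was at least 100 in 8 of the 80 and in 1 of the 67. Of the 67, 16 were highest of all 14 libraries at the ommochrome stage, 6 were lowest at the melanin stage and 45 were neither, so the course of most called fallers was not that of most genes in this set. Of the 80, 33 were highest at the melanin stage, 8 lowest at the ommochrome stage and 39 neither. Of these 9 abundant genes, limma called c28846_g6 alone. The largest by level was at 105 and 283.7 FPKM at the ommochrome stage and 881.3 and 696.2 FPKM at the melanin stage, with 29 to 56.6 FPKM in the forewings (log2 difference 2.17 with SE 0.846, adjusted p by limma = 0.505). Another abundant gene was at 10.2 and 23.8 FPKM against 105.3 and 360.3 FPKM (log2 difference 3.55 with SE 0.759, adjusted p by limma = 0.145), and was at 100.9 to 291.4 FPKM in the forewings.

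Of the 140 components of that set, 7 held 2 or more of its genes and could show opposite changes within a component. Such changes were found in 2 of these 7. In one, a gene at 473.6 and 196.1 FPKM at the ommochrome stage was at 19.9 and 14.8 FPKM at the melanin stage (log2 difference -4.07, adjusted p by limma = 0.35). Its partner was at 2.59 and 15.7 FPKM and then at 34.6 and 39.1 FPKM (log2 difference 2.29, adjusted p by limma = 0.254), and neither passed the test. The other was the component of c27787_g8. Whether reads were divided between these sequences was not tested.

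The most abundant transcripts of the wing were nearly the same at both stages. Of the 10 genes of highest mean FPKM, 9 were shared, and of the highest 100, 93. Among the 107 genes in either list of 100, limma called 0, with 10 higher and 0 lower at an unadjusted p of 0.05. Over all genes tested 0.25% were called, so 0 calls among 107 genes says little. At an unadjusted p of 0.05, 5.81% of all genes were higher and 2.93% lower, a split that turned with the scaling. The lists were made from the libraries compared. The 10 most abundant genes held 28.2% of the summed FPKM in each ommochrome library and 29.8% and 27.2% in the melanin libraries. The gene of highest level was at 16949 and 17432 FPKM at the ommochrome stage and at 61181 and 29072 FPKM at the melanin stage, or 3.03% and 3.61% against 10.4% and 4.63% of the summed FPKM. The 2 melanin libraries thus lay above the ommochrome libraries and more than 2-fold apart (log2 difference 1.29 with SE 0.802, adjusted p by limma = 0.704).

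Changes by abundance were read in classes made from the 10 libraries outside the comparison. The median change was 0 in 1340 genes under 1 FPKM, 0.0053 in 4647 genes of 1 to 10 FPKM, 0.13 in 4048 genes of 10 to 100 FPKM, 0.23 in 616 genes of 100 to 1000 FPKM and 0.35 in 129 genes of at least 1000 FPKM. Abundant genes were thus higher at the melanin stage as the values were deposited. In the topmost class the medians with melanin replicates 1 and 2 taken singly were 0.24 and 0.46. The size depended on the scaling: with median-of-ratios factors that median was 0.24, with equal FPKM totals 0.12 and with quantile normalization 0.08. In the 10 to 100 FPKM class it was 0.03, -0.08 and -0.01 in the same order, so that its direction was set by the scaling. Of the 27 called genes, 13 were in the class under 1 FPKM, 8 at 1 to 10, 5 at 10 to 100, 1 at 100 to 1000 and 0 at 1000 or more. Over all genes tested 0.25% were called, so 0 calls among 129 genes says little. The pooled spread can be small in genes near 0 in those 10 libraries. Its part in the 13 calls under 1 FPKM was not tested. The median SE of that class was 0.337, against 0.33 in all genes tested.

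**Figure D4:**
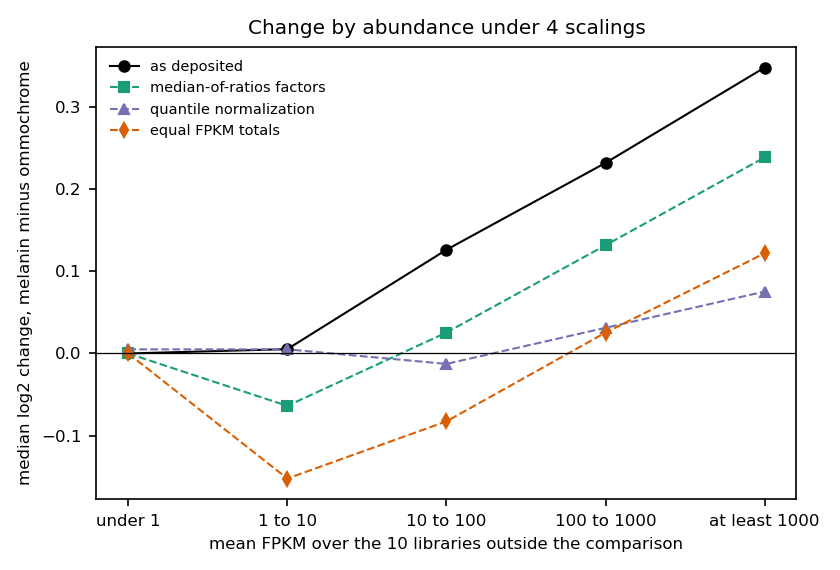
Median log2 change from the ommochrome to the melanin stage (y axis) of genes grouped by their mean FPKM in the 10 libraries outside the comparison (x axis), as deposited and under 3 other scalings. As deposited the medians run from 0 to 0.35 with abundance, and at 10 to 100 FPKM they lie on both sides of 0 depending on the scaling.

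Genes were also grouped by their history, using none of the 4 libraries compared. A gene was put in the larval, 72 h or 5 d class where its mean at that stage was at least 5 FPKM and at least 4 times that of the other 2 stages. It was put in the pigment-stage class where it was under 1 FPKM in the 6 earlier hind wing libraries and at least 5 FPKM on average in the forewings. The larval class held 1038 genes, of which limma called 0 higher and 1 lower, and its median change was 0.16, against 0.06 in all genes tested. At an unadjusted p of 0.05, 92 larval genes (8.86%) were higher and 25 (2.41%) lower, against 5.81% and 2.93% of all genes. With equal FPKM totals 39 were higher and 60 lower, and with median-of-ratios factors 72 and 38.

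The 5 d class held 379 genes with a median change of 0.11 and 0 calls by limma. It had 27 (7.12%) higher and 12 (3.17%) lower at an unadjusted p of 0.05. Scaled to equal totals, its median was -0.08 with 19 higher and 19 lower, where the median of all genes tested was -0.10. With median-of-ratios factors it was 0.0091 with 23 and 18. The 72 h class held 314 genes with a median change of 0.0079, and limma called 0 higher and 1 lower. It had 5 (1.59%) higher and 3 (0.955%) lower at an unadjusted p of 0.05. Scaled to equal totals, its median was -0.09 with 3 higher and 10 lower, where the median of all genes tested was -0.10. The median SE of the 72 h class was 0.692, against 0.33 in all genes tested, so the test was less able to call them. With the 72 h libraries left out limma called 34 genes, and 26 of the 27 were among them.

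The pigment-stage class held 62 genes, of which 2 were called higher and 1 lower by limma, and its median change was 0. Over all genes tested limma called 0.121% higher and 0.13% lower. At an unadjusted p of 0.05, 9 (14.5%) were higher and 3 (4.84%) lower, against 5.81% and 2.93% of all genes tested. These counts were 8 and 4 with median-of-ratios factors, 9 and 4 with quantile normalization and 8 and 6 with equal FPKM totals. Of the 62, 27 had at least 1 FPKM in each of the 4 libraries, and 15 were listed at 0 in all 4. One that was not called was at 38.1 and 9.5 FPKM at the ommochrome stage, 68.1 and 93.8 FPKM at the melanin stage and 27.6 to 55.4 FPKM in the forewings (log2 difference 2.00 with SE 0.53, adjusted p by limma = 0.262). The ommochrome libraries were 4-fold apart in that gene. Another went from 39.1 and 28.8 FPKM to 21.4 and 8.17 FPKM (log2 difference -1.27 with SE 0.38, adjusted p by limma = 0.35).

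**Figure D5:**
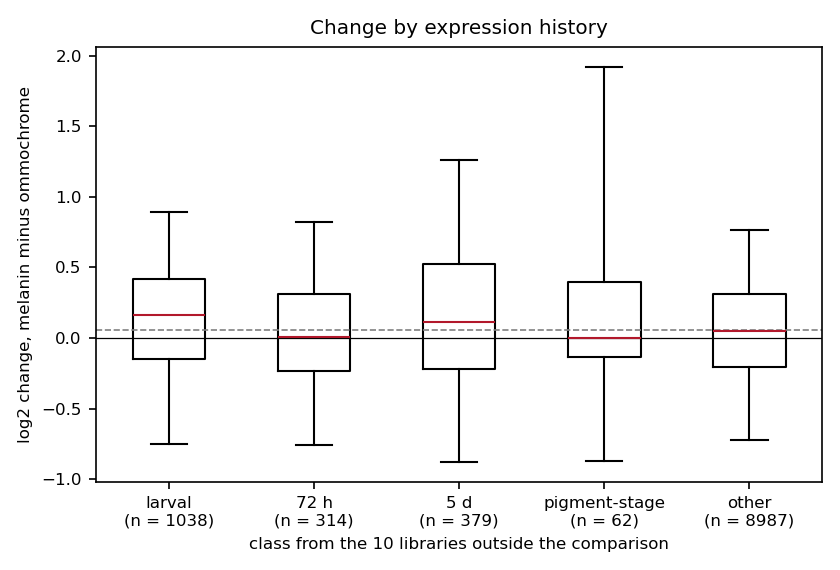
Log2 change from the ommochrome to the melanin stage (y axis) by expression history (x axis), with boxes from the lower to the upper quartile, a red line at the median, whiskers that leave out 5% of genes at each end, and a dashed line at the median of all genes tested. As deposited the medians lie between 0 and 0.16. With equal FPKM totals the larval median of 0.16 becomes -0.0011 and that of all genes tested, 0.06, becomes -0.10, so the larval class stays above it.

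Forewing colour genes were followed in the same step. By limma 22 genes (0.204% of those tested) were higher in black and 59 (0.547%) higher in red forewing regions, in libraries that are not part of the hind wing comparison but share its estimate of spread. Of the 22 black genes, 2 rose in the hind wing step (c28846_g6 and the riser described beside it) and 0 fell by limma. At an unadjusted p of 0.05, 4 black genes (18.2%) were higher and 1 (4.55%) lower. Of the 59 red genes, limma called 0, with 4 (6.78%) higher and 2 (3.39%) lower at an unadjusted p of 0.05. Over all genes tested these shares were 5.81% and 2.93%, and those of the red genes were near them. Both lists were called with the same spread estimate, which favours genes of small spread. Their median SE in the hind wing step was 0.243 (black) and 0.272 (red), against 0.33 in all genes tested. Low p-values therefore come more easily in these lists, and no excess is read from the black genes. The median change was 0 in both lists, and 11 black and 31 red genes had at least 1 FPKM in each of the 4 hind wing libraries. One strongly black gene, at 1385 and 1408 FPKM in black and 159.3 and 140.3 FPKM in red regions, was at 170.8 and 147.7 FPKM at the ommochrome and 180.6 and 119.6 FPKM at the melanin stage. Its hind wing levels were far below those of the black regions at both stages, and spread to both sides of the red values (log2 difference -0.11 with SE 0.231, adjusted p by limma = 0.966). Another was at 101.3 and 80.2 FPKM and then at 222.7 and 443 FPKM, against 136.3 to 161.9 FPKM in red and 1551 and 1590 FPKM in black regions (log2 difference 1.79 with SE 0.573, adjusted p by limma = 0.393).

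Few genes set either stage apart from the whole series. In 11 genes both ommochrome libraries lay at least 1 log2 above the other 12 libraries and in 2 genes below them. In 12 genes both melanin libraries lay that far above the other 12 and in 0 genes below. The corresponding numbers above and below were 1278 and 186 for the larva, 178 and 109 for 72 h, 119 and 12 for 5 d, 45 and 1 for red and 16 and 1 for black forewing regions. The black regions were thus close to either pigment-stage hind wing in these counts. A gene high at both pigment stages counts for neither by this measure.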

How the data were processed

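Expression was measured in wings of Vanessa cardui. The submitters' processing notes name Bowtie as a tool, and the series title names a de novo transcriptome. No version, assembler or quantification program is stated there. The authors deposited FPKM, 1 column per library. Total reads are unknown.

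The model was limma 3.58.1 in R 4.3.3 on log2(FPKM + 1), with 7 group means, all 14 libraries, 7 residual degrees of freedom and a spread prior that followed mean expression (2.88 prior degrees of freedom). Genes had to reach 1 FPKM in 2 or more libraries, which left 10780 to test; 72 of 13876 were at 0 throughout. Tests were two-sided. With 2 libraries a side an exact permutation test cannot pass a threshold of 0.05, so no single value was tested that way. Named genes are the 2 called genes in each direction, with no overlap of the stages, of highest mean FPKM in the higher stage; other called genes are given without identifiers. Genes described as examples beyond these were chosen after their values were seen. Members, classes and alternatives were chosen with earlier results of these data known. The fit was checked on simulated data in which each gene had the same spread in all 7 groups. That check cannot show how the test behaves where the spread differs between groups. The depth estimate was checked at several simulated depths, recovered every library only at the shallowest of them, and elsewhere erred by a factor of 2 in some libraries, so it is used only as a rough description. Figures were drawn in Python 3.11.15 with matplotlib 3.10.9, NumPy 2.4.6 and pandas 2.3.3.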

Additional observations from a re-analysis of the deposited data

How the results depend on the processing

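All 27 called genes kept their direction in each of the 31 other limma fits to genes that tested them. Only the fits that rescaled the libraries could have turned a direction, because the 2 stages did not overlap in any called gene. The other fits therefore say nothing on the stability of direction. The count of 27 moved most with the libraries: with 1 library left out it ranged from 0 to 59, being 0 without either ommochrome library, 59 without melanin replicate 2 (17 of the 27 among them) and 17 without either red library. It was 13 with a pseudocount of 0.1, 48 with a pseudocount of 5, 13 at a minimum of 5 FPKM and 0 in the 4 libraries alone. Equal FPKM totals gave 12 called higher and 22 called lower. At an unadjusted p of 0.05 it was 626 and 316 as deposited, 476 and 453 with median-of-ratios factors, 525 and 467 with quantile normalization and 295 and 725 with equal totals. The median change of all genes, 0.06, was -0.10 with equal totals and -0.0814 with the 10 most abundant genes left out, and 0 to 0.12 without single libraries. The 147 genes set apart by 1 log2 were 368 with a pseudocount of 0.1 and 52 with a pseudocount of 5. Same-numbered ommochrome and melanin libraries deviated with a correlation of -0.08 across genes, so they share a number and no known pairing. A replicate block for the 2 stages called 25 genes and a replicate block over all libraries 20. The cause of these shifts was not tested. Read totals are unknown, which limits what can be said of genes near 0, most of all in melanin replicate 1 with its 3641 zeros.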
